A study of Mus musculus with 8 samples.

Results

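The comparison described here set 3 passage 2 tumours that had been under RANK-Fc in both passages against 3 passage 1 tumours under RANK-Fc, which were 6 of the 16 tumours of the series. They were chosen by their treatment labels alone. The FC_FC tumours carried the label of neoadjuvant plus adjuvant RANK-Fc at passage 2, and the FC tumours that of adjuvant RANK-Fc at passage 1. All were pieces of MMTV-PyMT mammary carcinomas of the FVB strain growing in the mammary gland of wild-type FVB mice, and RANK-Fc was given intraperitoneally at 10 mg/kg, 3 times per week. The other groups used for comparison were CT_CT (2 untreated tumours of passage 2) and CT (2 untreated tumours of passage 1), CT_FC (3 tumours of passage 2 first treated in that passage) and FC_CT (3 tumours of passage 2 whose treatment was stopped). The codes are taken to mean that FC_FC and FC_CT tumours had their earlier treatment in passage 1, and the ages of the mice were not given. Each tumour came from its own animal, but the lineage of each passage 2 tumour is not stated, so the p-values below measure the spread between these tumours, and passage 2 tumours of a group may share a parent.

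In MMTV-PyMT mice the mouse mammary tumour virus promoter drives the polyoma middle T oncogene mainly in the mammary epithelium, so the carcinoma cells carry the transgene while the vessels, immune cells and part of the matrix come from the host. RANK, encoded by Tnfrsf11a, is a receptor of the tumour necrosis factor family that signals through TRAF adaptors to NF-kB. In the mammary gland its ligand RANKL, encoded by Tnfsf11, relays progesterone signals to neighbouring luminal and progenitor cells and is known to hold back milk-secreting differentiation. RANK-Fc is a soluble receptor that binds RANKL and keeps it from the cells. A passage here is a transfer of tumour tissue into new hosts.

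RNA was measured on 2-colour arrays with 1 tumour in each channel, so the 16 tumours lay on 8 arrays of 1 slide with 1 scan time. Values below are normalised log2 intensities of a gene's probe, on which a difference of 1 is a doubling, and no level is compared between genes. In each channel 47.5% to 56.5% of spots were well above background. General epithelial markers were bright in both groups: Krt18, a luminal keratin, measured 16.16, 15.96 and 16.13 in FC_FC tumours and 15.99, 16.22 and 16.24 in FC tumours. Of the 17 epithelial markers 0 passed the test between the groups, against 2.57% of all genes tested. A count of 0 in so short a list does not show the groups to be alike. The groups were not spread evenly over the slide. The 3 FC_FC tumours lay on arrays of position row 1 and the 3 FC tumours on arrays of row 2, per the file headers, so no value within a row exists for this comparison. The dyes were 2 Cy5 and 1 Cy3 for FC_FC and 1 Cy5 and 2 Cy3 for FC, and dye was a term of the fit.

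Tumours that stayed under RANK-Fc differed between the passages in 364 of 14141 genes tested (2.57%), with 114 genes higher in FC_FC tumours (0.806%) and 250 lower (1.77%), at an adjusted p under 0.05 by limma with Benjamini-Hochberg adjustment over all genes. The sizes of these differences lay between 0.35 and 3.60 on the log2 scale, with 134 over 1 and 18 over 2. In 360 of the 364 genes the 3 values of one group lay wholly above those of the other, against 25.6% of all genes tested. The median difference over all genes was -0.01. At an unadjusted p under 0.05 there were 2812 genes, against 707 expected if no gene differed. With the slide row added as a term, estimated from the other tumours, 0 genes passed (smallest adjusted p = 0.0705, 1714 genes at an unadjusted p under 0.05 by limma). All 364 genes then kept their direction and had an unadjusted p under 0.05, with a median size of 0.783 against 0.820 without the term and a median standard error (SE) of 0.195 against 0.166. These genes had been picked for small p in the same tumours, so this is no separate test. The counts also moved with single tumours. Without FC_FC tumour 1, 2 or 3 the genes higher numbered 32, 155 and 20 and those lower 48, 231 and 45, and without FC tumour 1, 2 or 3 they numbered 22, 16 and 17 higher and 45, 41 and 60 lower.

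Correlations of the log2 intensities across genes, which are not independent replicates, were 0.971 to 0.989 among the FC_FC tumours, 0.988 to 0.993 among the FC tumours and 0.965 to 0.984 between the groups. FC_FC tumours 2 and 3 stood further from their group than the others, with 351 and 538 genes more than 1 log2 unit from the mean of the other 2 tumours, against 90 for FC_FC tumour 1 and 99, 165 and 62 for the FC tumours.

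The genes that rose most were a renin, a mucin and a pair of cystatin-family inhibitors. The largest rises and falls were picked among genes past the threshold whose groups did not overlap, so lack of overlap in them is no result. Ren2, a duplicated renin gene of some mouse strains that cleaves angiotensinogen, measured 10.72, 10.75 and 11.78 in FC_FC tumours, against 8.68, 7.18 and 7.92 in FC tumours. Its fitted difference was 3.06 ± 0.65 (SE, n = 3 each, adjusted p = 0.0352, limma). Ren1 is a near-identical copy, so the probe may read both. Muc4, a membrane-bound mucin that can partner ErbB2, measured 11.77, 10.94 and 10.67 in FC_FC tumours, against 9.23, 6.91 and 8.15 in FC tumours, a difference of 2.73 ± 0.38 (adjusted p = 0.0081). A dimmer probe of Muc4 gave 0.87.

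Stfa1 and Cstdc5 are stefin genes of one cluster on chromosome 16, whose products inhibit cysteine proteases inside cells. Stfa1 measured 10.17, 8.99 and 9.82 in FC_FC tumours, against 7.32, 6.41 and 7.003 in FC tumours, a difference of 2.62 ± 0.32 (adjusted p = 0.00563, limma). Cstdc5 measured 10.31, 9.21 and 9.95 in FC_FC tumours, against 7.28, 6.68 and 7.21 in FC tumours, a difference of 2.62 ± 0.30 (adjusted p = 0.00374). FC_FC tumour 2 was the lowest of its group for both genes and FC tumour 2 the lowest of the other. Their promoter windows from RefSeq (build GRCm38.p6, 250 bases before to 50 after the start) are shown because the 2 genes moved together and are hard to tell apart. Stfa1 lies at chr16:36276898-36277197 on the plus strand and Cstdc5 at chr16:36367521-36367820 on the minus strand.
Stfa1: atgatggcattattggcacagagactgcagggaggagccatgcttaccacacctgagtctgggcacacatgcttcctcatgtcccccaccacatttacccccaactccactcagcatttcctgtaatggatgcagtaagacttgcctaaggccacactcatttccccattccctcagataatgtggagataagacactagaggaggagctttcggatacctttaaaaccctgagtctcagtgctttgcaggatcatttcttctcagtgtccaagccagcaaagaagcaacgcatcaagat
Cstdc5: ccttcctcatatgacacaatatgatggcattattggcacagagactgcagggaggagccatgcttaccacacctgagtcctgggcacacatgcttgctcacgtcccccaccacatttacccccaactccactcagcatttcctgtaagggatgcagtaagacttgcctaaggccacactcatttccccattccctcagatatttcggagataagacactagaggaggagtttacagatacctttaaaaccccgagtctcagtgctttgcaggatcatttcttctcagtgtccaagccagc
The 2 windows were identical at 269 of 279 aligned bases (96.4%), and reads of one gene's RNA by the other's probe were not tested. Neither held TATAAA or TTCNNNGAA on either strand, so no letter is in capitals. TATAAA, the core of the TATA box, occurs on either strand in 13.6% of the 32851 RefSeq windows of this length, and TTCNNNGAA, the form that STAT factors such as the prolactin-activated STAT5 bind, in 8.3%.

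The other 8 of the 12 largest rises were of mixed known roles. Mal, a membrane raft protein of apical transport, measured 10.50, 10.55 and 10.84 in FC_FC tumours and 9.26, 8.04 and 8.62 in FC tumours, a difference of 1.95 ± 0.25 (adjusted p = 0.0076, limma). Dmkn, dermokine, a secreted protein of differentiated epidermis, was at 12.72, 12.67 and 12.36 in FC_FC tumours and at 11.07, 10.05 and 10.76 in FC tumours, a difference of 1.84 ± 0.42 (adjusted p = 0.0412), with 1.86 from a second probe. Prodh, which starts proline breakdown in mitochondria, rose by 1.78, Apobr, a receptor for apolipoprotein B48, by 1.75, and Stra6l, a receptor for retinol-binding protein 4, by 1.64. Kiss1, the precursor of kisspeptin, rose by 1.67, with 1.31 from a second probe, and 1810065E05Rik by 1.62. Bpifb9b, of the family of bactericidal/permeability-increasing proteins, was not well above background in any FC tumour, at 6.17, 6.05 and 6.07, and measured 6.70, 7.51 and 8.43 in FC_FC tumours, at least 2.73-fold higher (adjusted p = 0.0174). FC_FC tumour 3 was the highest for this gene and FC_FC tumour 1 the lowest of its group.

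**Figure D1:**
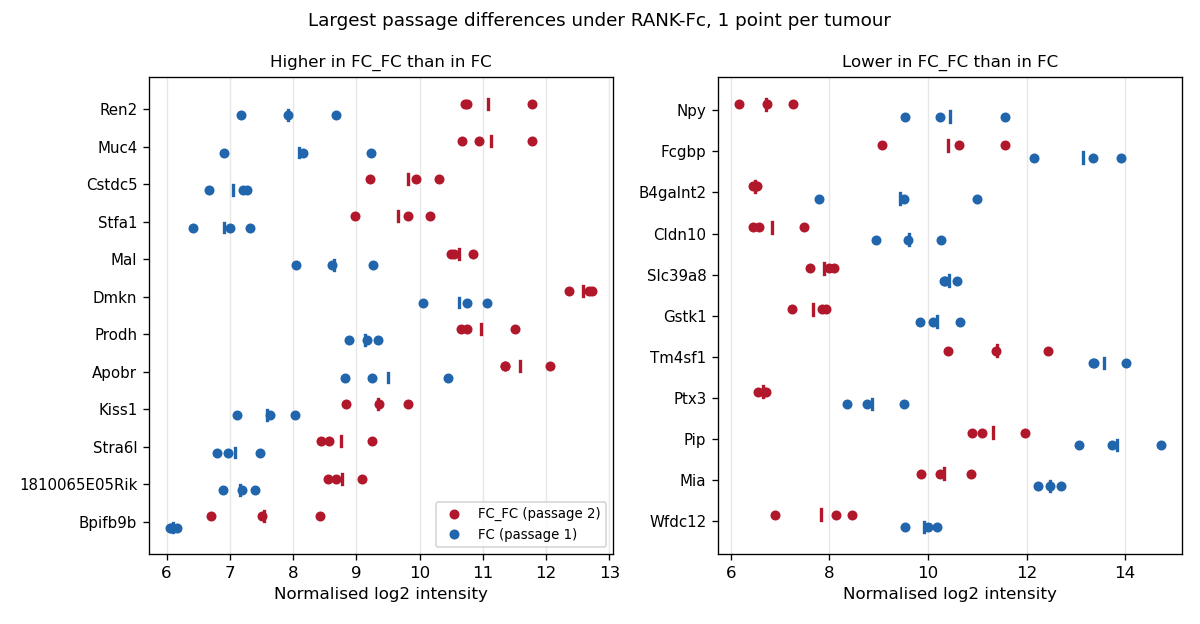
Normalised log2 intensity (horizontal axis) of the 12 genes with the largest rises (left) and 11 of the 12 with the largest falls (right) past the threshold, 1 point per tumour, FC_FC above FC within each row, with the group mean as a short line. The genes were chosen to have no overlap between the 3 FC_FC and the 3 FC tumours, and the widest gap between means is that of Npy.

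The genes that fell most were led by a neuropeptide. Npy, neuropeptide Y, measured 7.27, 6.73 and 6.17 in FC_FC tumours, against 10.24, 9.53 and 11.56 in FC tumours, and fell by 3.60 ± 0.55 (SE, n = 3 each, adjusted p = 0.00899, limma). It was well above background in 2 of 3 FC_FC tumours, so its low level is near what the array can read. Slc39a8, a zinc and manganese importer, kept close values within each group, with 8.09, 8.001 and 7.60 in FC_FC tumours and 10.35, 10.58 and 10.33 in FC tumours, a difference of -2.51 ± 0.27 (adjusted p = 0.00374). Fcgbp, a mucus protein that resembles mucins, measured 10.63, 11.56 and 9.06 in FC_FC tumours and 13.35, 12.16 and 13.91 in FC tumours, and fell by 2.94 ± 0.59 (adjusted p = 0.0293), with -2.24 without FC_FC tumour 3.

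Several of the other falls took a gene to the edge of detection. B4galnt2, which adds the terminal sugar of the Sda blood group, was not well above background in any FC_FC tumour, at 6.45, 6.53 and 6.52. It measured 9.51, 10.99 and 7.80 in FC tumours, a fitted difference of -2.83 ± 0.64 (adjusted p = 0.0412, limma). FC tumour 2 was the highest of its group, and the fitted difference of -2.83 was -2.05 without it. Cldn10, a claudin of paracellular ion channels, was at 6.45, 7.49 and 6.58 in FC_FC tumours and 8.95, 10.27 and 9.60 in FC tumours, a difference of -2.60 ± 0.40 (adjusted p = 0.00899), and was well above background in 2 of 3 FC_FC tumours. Ptx3, a soluble pattern-recognition protein, was at 6.67, 6.71 and 6.56 in FC_FC tumours and 8.35, 9.51 and 8.76 in FC tumours, a difference of -2.22 ± 0.33 (adjusted p = 0.00866). Gstk1, a mitochondrial and peroxisomal glutathione transferase, fell by 2.35, and Tm4sf1, a surface protein of the tetraspanin-like L6 family, fell by 2.30, with -1.63 without FC_FC tumour 3. Mia, a secreted protein of cartilage and melanoma, fell by 2.17, and Wfdc12, a whey acidic protein-type inhibitor, fell by 2.16.

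Of the 45 genes named here that passed, 9 kept their call without each of the 6 tumours in turn: Cstdc5, Itgb3, Mal, Muc4, Myc, Slc39a8, Stfa1, Stra6l and Tbx3. A further 6 lost it without 1 tumour. Without FC_FC tumour 3, Npy stood at -3.27, Cldn10 at -2.23, Ptx3 at -2.01, Wfdc12 at -1.66 and Dll1 at -0.96, and without FC tumour 1 Nrg2 stood at -1.28, each with its direction kept. The other 30 lost it without 2 to 6 of the tumours. Leaving out FC_FC tumour 1, 2 or 3 ended 27, 10 and 32 of the 45 calls, and leaving out FC tumour 1, 2 or 3 ended 27, 30 and 24. No direction turned in these fits.

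The same step between passages had also been sampled in mice that never received RANK-Fc, as CT_CT against CT tumours. No tumour is shared by the 2 comparisons, but arrays C and E each carried 1 tumour of either. Without RANK-Fc 468 genes passed (3.31%), 128 higher (0.905%) and 340 lower (2.4%) in CT_CT. The CT_CT and the CT tumours each lay in both slide rows, and 438 genes passed with the row as a term. Of the 364 genes found under RANK-Fc, 357 (98.1%) had the same direction without it, against 69.9% of all genes tested. Both comparisons called 171 genes, which are 47.0% of the 364 and 36.5% of the 468, and all 171 ran the same way. Among the 114 higher genes 108 kept the direction, and among the 250 lower genes 249.

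The sizes were close for some genes and apart for others. Stfa1 differed by 2.62 under RANK-Fc and by 2.63 without it, Ren2 by 3.06 and 3.07, Mal by 1.95 and 2.06, and Slc39a8 by -2.51 and -2.90. Muc4 differed by 2.73 under RANK-Fc and 3.84 without it, Apobr by 1.75 and 2.70, and Fcgbp by -2.94 and -1.78. For Ren2 the untreated difference did not pass (adjusted p = 0.0529, limma), with means of 11.06 in CT_CT tumours and 7.88 in CT tumours. The test of the difference between the 2 passage changes called 0 of 14141 genes (smallest adjusted p = 0.597, 506 genes at an unadjusted p under 0.05 by limma, against 707 expected). Its median SE was 0.22, so for most genes only large differences could have been found, and this count does not show that the passage changes are alike.

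**Figure D2:**
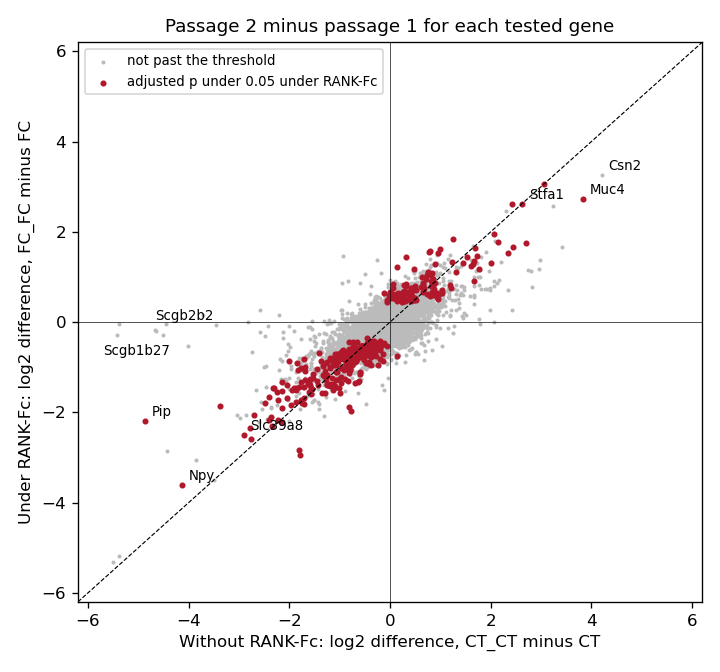
Passage 2 minus passage 1 on the log2 scale under RANK-Fc (vertical, FC_FC minus FC) against the same without RANK-Fc (horizontal, CT_CT minus CT), 1 point per tested gene, with the genes past the threshold under RANK-Fc in red and a dashed line of equal change. Red points lie mostly in the quadrants of shared direction (357 of 364 genes), whereas Scgb1b27 (-0.27 and -5.43) and Scgb2b2 (-0.16 and -4.67) lie near 0 on the vertical axis and far to the left, and Pip (-2.20 and -4.87) above the line.

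The 5 genes with the smallest p in that test were Scgb2b27, Scgb2b2, Scgb2b20, Scgb1b27 and Bbox1. The first 4 are secretoglobins of the androgen-binding protein clusters, small secreted proteins of mouse saliva and other glands. Scgb2b2 measured 14.04, 14.44 and 15.64 in FC_FC tumours and 14.26, 15.90 and 15.33 in FC tumours, and 9.21 and 10.56 in CT_CT tumours and 13.41 and 15.26 in CT tumours. FC_FC and FC tumours overlapped, while both CT_CT tumours lay below both CT tumours. Its passage difference was -0.16 ± 0.53 (adjusted p = 0.898, limma) under RANK-Fc and -4.67 (adjusted p = 0.00411) without it, and the difference of the 2 was 4.51 ± 0.83 (unadjusted p = 0.000131, adjusted p = 0.597). Scgb1b27 measured 11.76, 12.38 and 12.65 in FC_FC tumours and 11.91, 12.73 and 13.43 in FC tumours, against 6.83 and 6.74 in CT_CT tumours and 10.14 and 14.18 in CT tumours. Its difference of passage changes was 5.15 ± 1.01, that of Scgb2b20 4.45 ± 0.84 and that of Scgb2b27 4.39 ± 0.74, with unadjusted p of 0.000243, 0.000167 and 6.0e-05 by limma, and none passed the adjustment. These genes have near-identical copies, so they may not be separate measurements and the gene assigned to a probe is uncertain. Bbox1, the last enzyme of carnitine synthesis, differed by -0.01 under RANK-Fc. It was not well above background in either CT_CT tumour, so its fitted difference of -1.16 without RANK-Fc rests on a value at the edge of detection.

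Pip, prolactin-inducible protein, is secreted by mammary, salivary and lacrimal glands. It measured 10.89, 11.10 and 11.97 in FC_FC tumours and 13.06, 14.72 and 13.74 in FC tumours, against 5.95 and 6.58 in CT_CT tumours and 9.69 and 12.48 in CT tumours. It was well above background in 1 of 2 CT_CT and 2 of 3 CT_FC tumours, which limits the sizes set against those groups. It fell by 2.20 ± 0.39 under RANK-Fc (adjusted p = 0.0177, limma) and fell by 4.87 without it (adjusted p = 0.0008), and the difference of the 2, 2.67 ± 0.61, had an unadjusted p of 0.000817 and an adjusted p of 0.832. Leaving out FC_FC tumour 1 or 3 or FC tumour 1 or 2 ended the call under RANK-Fc, with differences of -2.09, -2.18, -2.29 and -2.01. The promoter windows of 2 secretoglobins and of Pip follow, since the secretoglobins overlapped between FC_FC and FC tumours while Pip fell. Capitals mark TATAAA or TTCNNNGAA on either strand, and TTCNNNGAA reads the same on both. Scgb2b2 lies at chr7:31302519-31302818 (plus strand), Scgb2b20 at chr7:33366270-33366569 (minus strand) and Pip at chr6:41847299-41847598 (plus strand), in GRCm38.p6.
Scgb2b2: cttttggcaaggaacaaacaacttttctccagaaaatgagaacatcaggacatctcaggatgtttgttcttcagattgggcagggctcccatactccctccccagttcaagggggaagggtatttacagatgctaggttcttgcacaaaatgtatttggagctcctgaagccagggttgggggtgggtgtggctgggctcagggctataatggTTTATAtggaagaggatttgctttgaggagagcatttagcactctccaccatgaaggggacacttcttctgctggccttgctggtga
Scgb2b20: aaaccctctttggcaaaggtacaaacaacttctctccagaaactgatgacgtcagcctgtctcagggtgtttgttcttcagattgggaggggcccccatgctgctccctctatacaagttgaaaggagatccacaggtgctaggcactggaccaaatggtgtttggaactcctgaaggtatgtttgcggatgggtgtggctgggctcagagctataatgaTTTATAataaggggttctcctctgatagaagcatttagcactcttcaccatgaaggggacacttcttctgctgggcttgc
Pip: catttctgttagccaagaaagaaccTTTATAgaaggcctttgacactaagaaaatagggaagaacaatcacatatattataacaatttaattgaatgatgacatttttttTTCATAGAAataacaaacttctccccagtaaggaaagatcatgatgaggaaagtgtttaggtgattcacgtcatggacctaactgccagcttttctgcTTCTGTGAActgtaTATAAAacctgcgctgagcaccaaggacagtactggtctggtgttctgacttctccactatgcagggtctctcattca
Scgb2b2 and Scgb2b20 each held 1 match of TATAAA and 0 of TTCNNNGAA, and their windows were identical at 233 of 293 aligned bases (79.5%). Pip held 2 matches of each. A match describes letters and not a bound site.

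Tumours of passage 2 that had first met RANK-Fc in that passage differ from FC_FC tumours, by their labels, in the earlier treatment alone. FC_FC against CT_FC called 20 genes (0.141%), 16 higher (0.113%) and 4 lower (0.0283%) in FC_FC. This comparison shares the FC_FC tumours with the one above. Pip measured 10.89, 11.10 and 11.97 in FC_FC tumours and 7.57, 6.61 and 6.96 in CT_FC tumours, a difference of 4.60 ± 0.38 (adjusted p = 0.000422, limma). Scgb2b2 measured 14.04, 14.44 and 15.64 in FC_FC tumours and 10.57, 10.53 and 9.34 in CT_FC tumours, a difference of 4.95 ± 0.52 (adjusted p = 0.00179). Neither gene overlapped between the groups, which is no separate result since both are described here because they were called. Scgb1b27, Scgb2b20, Scgb2b27, Scgb1b30, Scgb1b3 and Scgb2b15 were also among the 16, with differences of 5.27, 4.94, 4.76, 4.70, 3.68 and 2.70, as were Krt23, a keratin of glandular epithelium, at 2.82, and Etv1, an ETS transcription factor, at 1.82. The 4 lower genes, named after their values were seen, were Lcn10, a lipocalin (-1.35), P2ry2, a nucleotide receptor (-0.77), Plau, the urokinase plasminogen activator (-0.71), and Ninj1, an adhesion protein that ruptures dying cells' membranes (-0.67). Lcn10 and Plau had low means in FC_FC tumours, 6.46 and 6.66, close to that of B4galnt2, which may limit their sizes. The count of 20 became 31, 7 and 6 without FC_FC tumour 1, 2 or 3, and 351, 29 and 6 without CT_FC tumour 1, 2 or 3. Of the genes called, 80.0% were higher in FC_FC tumours, but 21.94% were without CT_FC tumour 1, so the balance of directions rested on that tumour. The count became 10, 10 and 9 without FC tumour 1, 2 or 3. Those tumours are in neither group compared, but all 16 tumours share 1 estimate of the spread and 1 dye term in the fit. How far each of these moved the count was not tested.

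Tumours taken off RANK-Fc at passage 2 had values of Pip and Scgb2b2 between those of FC_FC and CT_FC tumours. FC_FC against FC_CT called 0 genes (smallest adjusted p = 0.168, 1394 genes at an unadjusted p under 0.05 by limma). For Scgb2b2 the FC_CT tumours measured 10.88, 13.32 and 12.53, each below all 3 FC_FC tumours, with a difference of 2.51 ± 0.50 that did not pass (adjusted p = 0.168). For Pip they measured 9.77, 10.01 and 9.10, also below all FC_FC tumours, with a difference of 1.73 ± 0.37 (adjusted p = 0.185). Set against the same FC tumours of passage 1, which all 3 comparisons share, Pip differed by -2.20 in FC_FC, -6.80 in CT_FC and -3.92 in FC_CT tumours, and Scgb2b2 by -0.16, -5.12 and -2.68. Against those FC tumours 871 genes (6.16%) passed for CT_FC, 315 higher (2.23%) and 556 lower (3.93%), and 63 (0.446%) for FC_CT, 24 higher (0.17%) and 39 lower (0.276%). The FC tumours all lay in slide row 2, and the CT_FC and FC_CT tumours in both rows. How these counts move with the row as a term or without single tumours was not examined.

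**Figure D3:**
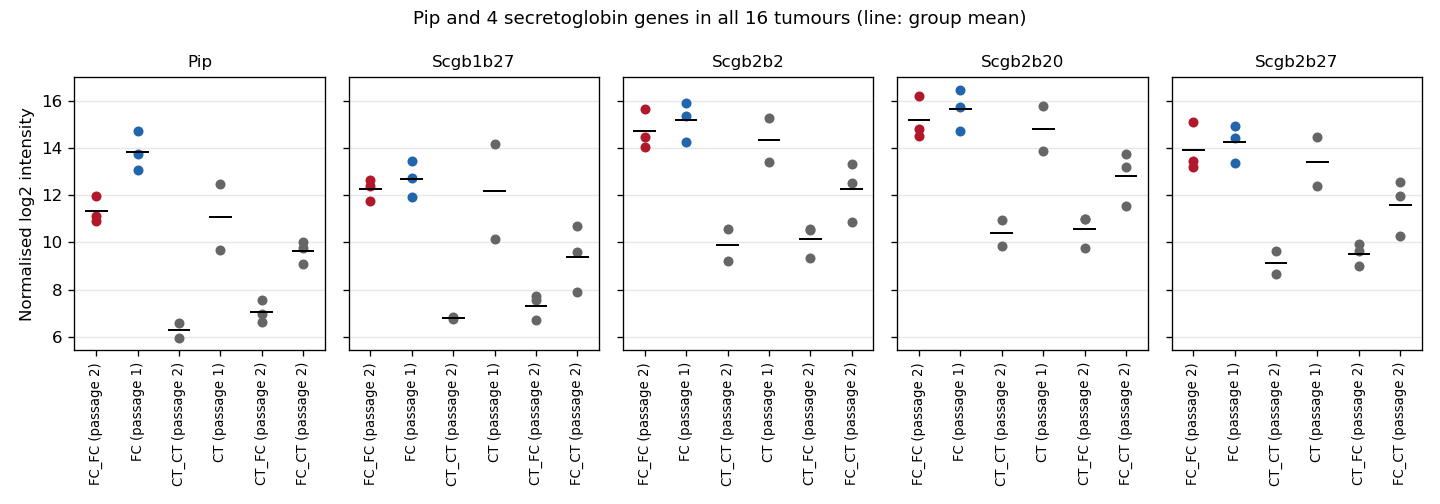
Normalised log2 intensity (vertical axis) of Pip and 4 secretoglobin genes in all 16 tumours, 1 point per tumour and a line at each group mean, with FC_FC in red, FC in blue and the other groups in grey. The secretoglobin values of FC_FC tumours overlap those of FC tumours and lie above every CT_CT and CT_FC tumour, whereas Pip in FC_FC tumours lies below all FC tumours and above all CT_CT and CT_FC tumours.

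The salivary-type genes Dcpp1, Dcpp2 and Dcpp3, demilune cell and parotid proteins of the same list, held some of the largest differences but did not pass. Dcpp1, named after its values were seen, measured 9.09, 8.38 and 6.88 in FC_FC tumours, against 11.88, 16.06 and 12.59 in FC tumours, a difference of -5.32 ± 1.29 (adjusted p = 0.051, limma). Without RANK-Fc it differed by -5.50. The FC values were widely spread, FC tumour 2 being far above the others. Dcpp2 and Dcpp3 differed by -3.49 and -5.19, and the 3 genes are near-identical copies. Of 14 tested members of the list of secretoglobins and other small secreted proteins, 0 rose and 1, Pip, fell, against 1.77% lower among all genes. The median was -0.24 against -0.01 for all genes. Without RANK-Fc 6 fell, against 2.4% of all genes, with a median of -4.55. Those 6 were Pip and secretoglobins with near-identical copies, so they may not be separate measurements.

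Milk genes are the classical mark of secretory differentiation. Of 23 milk protein genes tested 1 rose, 1 fell and 19 had a positive difference, with a median of 0.53. Without RANK-Fc 2 rose, 0 fell and 17 were positive, with a median of 0.56. Among all genes 0.806% rose and 1.77% fell under RANK-Fc, and 0.905% and 2.4% without it. Plin2, which coats lipid droplets, measured 15.37, 14.53 and 14.57 in FC_FC tumours and 14.16, 13.56 and 13.35 in FC tumours, and rose by 0.91 ± 0.21 (adjusted p = 0.0424, limma). Mfge8, a milk fat globule protein, measured 16.72, 16.71 and 15.16 in FC_FC tumours and 17.17, 17.57 and 17.17 in FC tumours, and fell by 1.33 ± 0.30 (adjusted p = 0.0412), a value that was -0.77 without FC_FC tumour 3. None of the 5 caseins tested passed. Csn2, beta-casein, measured 15.50, 13.07 and 14.69 in FC_FC tumours and 11.84, 7.86 and 13.46 in FC tumours, so the groups overlapped, with a difference of 3.25 ± 1.30 (adjusted p = 0.194). Wap, whey acidic protein, measured 16.71, 15.70 and 16.44 in FC_FC tumours and 15.12, 13.01 and 14.65 in FC tumours, with no overlap and a difference of 1.81 ± 0.48 (adjusted p = 0.0692). Csn1s1 differed by 2.57 ± 0.86, Csn1s2a by 2.46 ± 1.13, Csn1s2b by 0.78 ± 0.82 and Csn3, kappa-casein, by 0.02 ± 0.25. These genes were named after their values were seen. Without RANK-Fc Csn1s1, Csn2, Csn1s2a, Csn1s2b and Csn3 differed by 3.25, 4.21, 2.31, 0.14 and -0.27. Plin2, Mfge8 and Wap then differed by 1.67, -0.63 and 2.09. Among 24 genes of milk fat and cholesterol synthesis 2 rose and 0 fell, with a median of 0.28 against 0.07 without RANK-Fc: Scd2, a fatty acid desaturase, by 0.49, and Cyp51, of sterol synthesis, by 0.49.

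The receptor RANK and its decoy were measured, and neither passed. Tnfrsf11a measured 12.40, 11.998 and 12.17 in FC_FC tumours and 11.86, 11.61 and 12.004 in FC tumours, overlapping slightly, with a difference of 0.30 ± 0.19 (adjusted p = 0.398, limma). Tnfrsf11b, which encodes the natural decoy osteoprotegerin, measured 6.78, 8.51 and 6.99 in FC_FC tumours and 7.46, 7.61 and 7.26 in FC tumours, a difference of -0.15 ± 0.38 (adjusted p = 0.866). Tnfsf11 was well above background in 1 of 16 tumours and was not tested. The RANK-Fc protein was not measured. Of 22 RANK and NF-kB components 0 rose and 1 fell, against 1.77% lower among all genes, with a median of -0.13. Nfkb1, the p105/p50 subunit, measured 8.20, 8.23 and 7.90 in FC_FC tumours and 8.55, 8.58 and 8.59 in FC tumours, a difference of -0.56 ± 0.13 (adjusted p = 0.0389), with -0.30 from a dimmer probe. Relb and Traf1, named after their values were seen, stood at -0.72 (adjusted p = 0.0944) and -1.15 (adjusted p = 0.0784).

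A few markers of the mammary epithelial states fell. Of 12 luminal progenitor markers tested 0 rose and 2 fell, against 1.77% lower among all genes, with a median of -0.65. Without RANK-Fc 4 of the 12 fell, against 2.4% of all genes, with a median of -0.63. Itgb3, integrin beta-3, measured 9.03, 9.54 and 9.06 in FC_FC tumours and 10.74, 11.47 and 11.47 in FC tumours, and fell by 2.06 ± 0.28 (adjusted p = 0.0081, limma), with -0.70 from a dimmer probe. Hey1, a Notch target, measured 9.95, 10.68 and 9.94 in FC_FC tumours and 11.88, 12.09 and 12.24 in FC tumours, and fell by 1.78 ± 0.39 (adjusted p = 0.0384). Kit and Elf5, both defining genes of these cells, stood at -0.71 (adjusted p = 0.101) and 0.46 (adjusted p = 0.184). Of 13 hormone-sensing markers 0 rose and 2 fell under RANK-Fc and 3 fell without it, with medians of -0.33 and -0.37. Tbx3, a T-box factor of mammary development, measured 7.05, 6.86 and 7.06 in FC_FC tumours and 8.34, 8.36 and 8.42 in FC tumours, a difference of -1.43 ± 0.21 (adjusted p = 0.00866), and Cxcl12, a chemokine also made by stroma, fell by 1.27, with -0.55 from a dimmer probe. Of 17 basal and myoepithelial markers 0 rose and 2 fell under RANK-Fc and 1 fell without it, with medians of -0.28 and -0.34. The ErbB3 and ErbB4 ligand Nrg1 fell by 1.58 and the insulin-like growth factor binding protein Igfbp5 fell by 1.58. Igfbp5 stood at -0.99 without FC_FC tumour 3. Squamous markers, of which 7 of 15 were tested, ran the other way in sign, with 7 of 7 positive, a median of 0.69 and 0 past the threshold. Without RANK-Fc 7 of 7 were also positive, with a median of 0.56 and 0 past the threshold.

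Of 21 Wnt and Notch genes 2 rose and 2 fell, against 2.57% of all genes passing in either direction. Axin2, a Wnt target that feeds back on the pathway, was not well above background in any FC tumour, at 6.64, 6.21 and 6.41, and measured 7.24, 8.06 and 7.83 in FC_FC tumours, at least 2.45-fold higher (adjusted p = 0.0141, limma), with 0.25 from a dimmer probe. Tcf7, a Wnt effector, rose by 0.99 ± 0.21 (adjusted p = 0.0358). Dll1, a Notch ligand, measured 6.96, 7.31 and 7.30 in FC_FC tumours and 8.02, 8.59 and 8.12 in FC tumours, and fell by 1.00 ± 0.15 (adjusted p = 0.00899). Lrp6, a Wnt co-receptor, fell by 0.70, with -0.20 from a dimmer probe. Of 21 ErbB and FGF genes 0 rose and 3 fell, against 1.77% lower among all genes. Besides Nrg1 these were its relative Nrg2, at 7.35, 7.69 and 8.10 in FC_FC tumours and 9.39, 9.28 and 9.39 in FC tumours (-1.45, and -0.28 from a dimmer probe), and Etv5, an ETS factor downstream of FGF signals (-0.80). The ErbB receptors tested did not pass, Erbb2 standing at 0.13 (adjusted p = 0.563).

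Of 17 immediate early genes 2 rose and 0 fell, against 0.806% and 1.77% of all genes. Myc, a driver of growth and metabolism, measured 10.41, 10.63 and 11.08 in FC_FC tumours and 9.80, 9.45 and 9.90 in FC tumours, and rose by 1.11 ± 0.16 (adjusted p = 0.0081, limma). Atf3, a stress-induced factor, rose by 0.82 ± 0.17 (adjusted p = 0.0317). Of 28 proliferation genes 0 passed, with a median of 0.03; Mki67 measured 12.67, 12.36 and 12.64 in FC_FC tumours and 12.66, 13.13 and 12.96 in FC tumours. Of 21 apoptosis regulators 1 passed: Bcl2, which blocks mitochondrial cell death, fell by 0.70 ± 0.13 (adjusted p = 0.0212). Of 22 hypoxia and glycolysis genes 1 rose and 0 fell, with a median of 0.19: Pdk1, a kinase that inhibits pyruvate dehydrogenase in mitochondria, by 0.64 ± 0.14 (adjusted p = 0.0364, limma). Without RANK-Fc 7 of the 22 rose, with a median of 0.69. Among all genes 0.806% rose under RANK-Fc and 0.905% without it, and the difference of the passage changes passed for 0 genes of the list. Vegfa, an angiogenic factor, measured 10.74, 11.88 and 9.94 in FC_FC tumours and 10.15, 9.77 and 9.48 in FC tumours, overlapping, with a difference of 0.77 (adjusted p = 0.276) under RANK-Fc and 2.00 without it. Of 17 epithelial-mesenchymal transition genes 1 rose, Tgfb2, by 0.62 (adjusted p = 0.0497), and 0 fell. Of 21 amino acid and unfolded protein response genes 0 passed, with a median of 0.07. Among all genes 2.57% passed in either direction, so counts of 0 or 1 in lists of this size lie near that share.

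The tumour pieces hold host cells, and in bulk RNA fewer cells of a type and less RNA per cell cannot be told apart. Fibroblast and matrix genes had negative differences in 20 of 20 tested, with a median of -0.88, yet 0 passed. Col1a1, a fibrillar collagen chain named after its values were seen, measured 12.18, 12.71 and 12.50 in FC_FC tumours and 13.67, 14.57 and 13.78 in FC tumours, a difference of -1.58 ± 0.66 (adjusted p = 0.207, limma). The summed intensity of the 20 genes was 71530 to 85310 in FC_FC tumours and 130300 to 167900 in FC tumours, without overlap, and the median without RANK-Fc was -0.92. The 17 macrophage markers tested had 14 negative differences, a median of -0.48, 0 past the threshold, and summed intensities of 39870 to 62060 in FC_FC and 68260 to 71810 in FC tumours. Lists of T and NK cells (17 tested, median -0.25), interferon response (22, -0.09), antigen presentation (16, -0.19), chemokines (17, -0.26) and endothelium (14, -0.08) had 0 genes past the threshold. So did neutrophil (7 tested, median -0.11), B and plasma cell (4, -0.37), nerve and Schwann cell (10, -0.24), skeletal muscle (7, 0.02) and erythroid lists (5, 0.17). Among all genes 2.57% passed, so counts of 0 in lists of this size do not show that the groups were alike in these cells. Adipocyte markers (13 tested) had a median of -0.22 under RANK-Fc and of -1.13 without it, and summed to 13920 to 28320 in FC_FC tumours and 12970 to 39450 in FC tumours, overlapping. The part of host cells in the gene differences above was not tested.

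**Figure D4:**
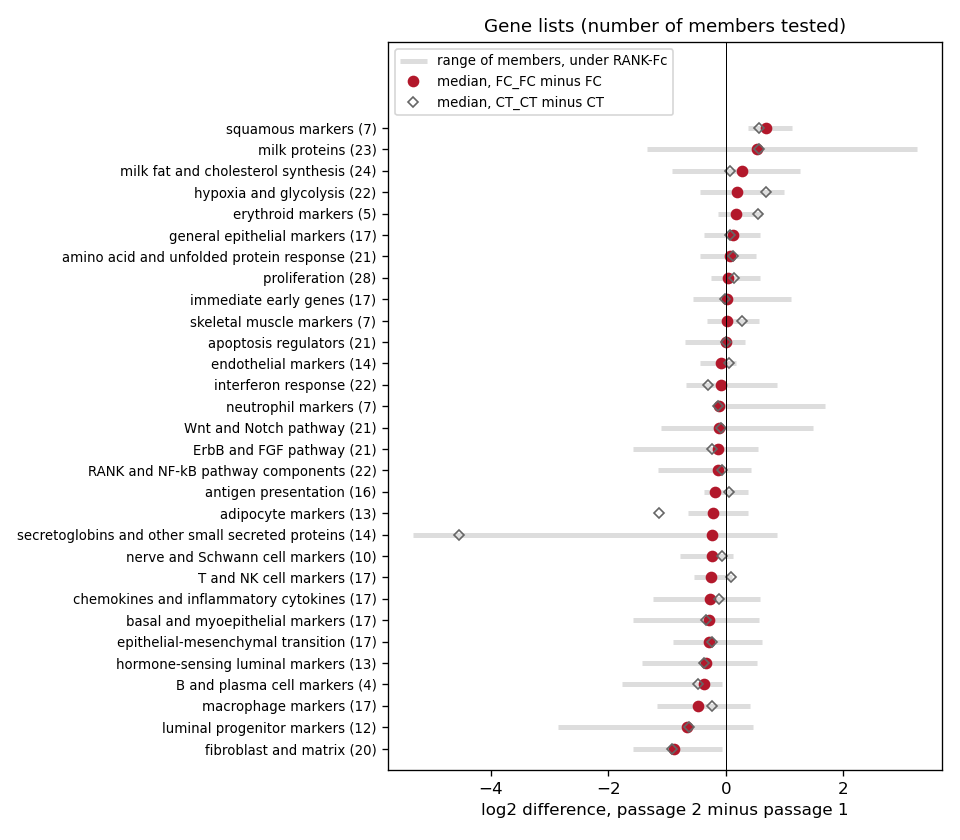
Log2 difference of passage 2 minus passage 1 (horizontal axis) over the tested members of each of 30 gene lists, with the median under RANK-Fc (red circle, FC_FC minus FC), the median without RANK-Fc (open diamond, CT_CT minus CT) and the range of members under RANK-Fc (grey bar). Fibroblast and luminal progenitor lists have the lowest red medians, squamous and milk protein lists the highest, and the secretoglobin list the widest gap between its medians, at -0.24 and -4.55.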

How the data were processed

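RNA from 16 MMTV-PyMT tumours was labelled in 2 colours and hybridised to 8 Agilent arrays of 62976 spots. Feature Extraction 10.7.3.1 read the images, per the submitters' processing notes and the file headers, with an mm9 grid. The deposited files hold the median intensity and local background intensity of each spot as read by the scanner, per the file headers. Further columns hold processed intensity values, the log10 ratio of red over green, and other marks coded 0 or 1 for signal above background, saturation and outliers, per the file headers. A deposited table whose 8 columns match no label was not used. The log10 ratio correlated with background-subtracted red over green on each array, with r from 0.848 to 0.933 across spots.

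Intensities were corrected with normexp (offset 50), normalised by loess within arrays and Aquantile between them, and put on a log2 scale. Between 239 and 337 outlier spots per array were left out, and 0 were saturated. Of 55681 probes, 28026 were named through their accessions and a RefSeq table of GRCm38.p6, used for names only. A probe was kept if 1 or more of the 6 groups had it well above background in all their tumours, and the brightest stood for its gene, which left 14141 genes. The number of arrays limits the precision.

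limma 3.58.1 with statmod 1.5.0 in R 4.3.3 (data.table, version 1.17.8, jsonlite 2.0.0) fitted 6 group means and dye to the 16 channels with the array as a block. The estimated correlation of channels on an array, 0.376, was biased upward in simulations of this design and was set to 0.210 by a simulated curve. Residual degrees of freedom were 9, and adjustment was by Benjamini-Hochberg over all genes at 0.05. The fit was tested on simulated data. A fold given as "at least" sets the mean of the brighter group against, per array, the lowest signal among probes well above background or the dim probe's own value, whichever is higher, and is open to dye bias. Sequences were aligned with Biopython 1.88 and figures drawn with matplotlib 3.10.9 in Python 3.11.15 with pandas 2.3.3.

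Named genes were the 12 largest differences on each side among genes past the threshold whose groups did not overlap, up to 4 passing members of each of 30 gene lists by smallest p, the RANK genes, and the 5 genes of smallest p in the difference of passage changes. One gene that this rule names is not reported here. The comparison and the lists were chosen with earlier results of these data known. Of 560 list members 486 were tested. Members of different lists can be the same gene. The slide row was added as a term after the files had been seen.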

Additional observations from a re-analysis of the deposited data

Results flagged for a closer look

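FC_FC minus CT_FC tumours, which is the difference between 2 passage changes that share the FC tumours of passage 1, passed the test for 5 of the named genes. Pip was higher in FC_FC tumours by 4.60 on the log2 scale, Scgb2b27 by 4.76, Scgb2b2 by 4.95, Scgb2b20 by 4.94 and Scgb1b27 by 5.27. All 3 FC_FC tumours lay above all 3 CT_FC tumours for each, but the genes were picked for passing this test, so that is no separate result. Each passed in 16 of 16 fits that left out 1 tumour, with values from 4.25 to 5.77 across the 4 secretoglobins and from 4.33 to 4.84 for Pip. None of the 5 passed without the dye term or from the log ratios of the arrays alone, and Scgb2b27, Scgb2b2 and Scgb2b20 also lost the call with the 2 groups fitted alone. The secretoglobin probes may read the same transcripts, so the 4 are not independent. Groups of 2 or 3 tumours are too small for the test of the gap between a group's extreme value and the next, and no tumour was tested in this way.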

How the results depend on the processing

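The counts of passing genes depend on the processing, while the directions of the 45 named genes past the threshold did not turn under any alternative run. The genes higher in FC_FC than in FC tumours numbered 114, and 173 with the uncorrected correlation, 51 without background correction, 39 with median centring, 28 with FC_FC and FC fitted alone and 0 from log ratios alone or with the slide row as a term. The genes lower numbered 250, and 137 without background correction, 38 with median centring, 118 with processed signals, 105 with the groups alone and 0 from log ratios alone or with the slide row. Higher genes were 31.3% of those passing, 50.6% with median centring, 48.9% with processed signals and 21.05% with the groups alone. Without 1 tumour of the 16, higher genes ran from 16 to 199 and lower genes from 41 to 411, both lowest without FC tumour 2 and highest without CT_FC tumour 2. Leaving out either CT tumour gave 61 higher and 146 lower, either CT_CT tumour 57 and 123, and FC_CT tumour 2 62 and 133. Where a group of 2 lost a tumour, the lone one was assumed to vary like the others. The untreated passage change called 468 genes, 264 with median centring, 0 from log ratios alone and 11 to 588 without 1 tumour. FC_FC against CT_FC called 20 (80.0% higher), 111 with the uncorrected correlation (54.95% higher), 0 without the dye term or from log ratios alone, 41 with quantile normalisation, 13 with median centring, 2 with the groups alone and 6 to 351 without 1 tumour. The difference of the passage changes called 0, 3 with its 4 groups alone and 0 to 4 without 1 tumour, and FC_FC against FC_CT called 0 throughout except for 0 to 24 without 1 tumour. For the named genes, 1095 of the values kept their side of the threshold and 403 lost it. The values kept include those of named genes that had not passed at first and had no call to lose, so the share of calls kept was lower than these counts give. The cause was not tested, although fits on log ratios or on fewer groups also have fewer samples. Signals near background limit, among others, Npy, Cldn10, B4galnt2, Bpifb9b and Axin2, and Pip and Bbox1 in the other groups. No paired analysis was possible because the labels number animals and give no replicate numbers shared between groups.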
